A study of Mus musculus with 4 samples.

Results

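Plasma and its proteins cross a vessel wall between endothelial cells or through them, and 8 genes of the route through the cell were followed in mouse sciatic nerve. They were chosen by symbol as the genes of caveolae, of endothelial diaphragms, and of receptor-mediated and suppressed transcytosis: Plvap, Cav1, Cav2, Ehd2, Pacsin2, Mfsd2a, Tfrc and Lrp1. All 8 were among the 24062 gene symbols of the deposited table, and all 8 were among the 14700 genes that reached 1 CPM (counts scaled to library size with TMM factors) in at least 1 library.

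Caveolae are flask-shaped pits of the plasma membrane. Caveolins insert into the membrane as the coat, cavins cover it, and EHD2 and PACSIN2 sit at the neck and hold the pit at the surface. In endothelium, PLVAP forms the diaphragms that span fenestrae and the mouths of caveolae. MFSD2A, a lysophospholipid transporter of barrier endothelium, is known from mouse brain to keep caveola-mediated transcytosis low. TFRC (the transferrin receptor) and LRP1 (a large receptor of the LDL receptor family) carry ligands into cells through clathrin-coated pits, and in brain endothelium they are studied as receptors for transcytosis. Endothelium of endoneurial vessels forms the blood-nerve barrier together with the perineurium, while vessels of the epineurium outside it are more permeable. Cav1 and Cav2 are also abundant in adipocytes and fibroblasts, and Lrp1 in fibroblasts, macrophages and Schwann cells, so whole nerve gives sums over cell types.

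Sciatic nerves came from 4-month-old mice on a C57BL/6 background, with 1 RNA sequencing library for each of 4 genotypes. PKO-NF1 mice were P2RY14-/- and carried floxed Nf1 alleles (written Nf1fl/f) with Dhh Cre; NF1 mice were Nf1fl/fl with Dhh Cre; PKO mice were P2RY14-/-; WT mice are given as C57BL/6. P2RY14 responds to extracellular UDP-sugars, and neurofibromin, the product of Nf1, switches RAS off. Dhh Cre is used to delete floxed genes in the Schwann cell lineage, whereas P2RY14-/- is not limited to a cell type. The labels do not say how many animals a library holds, give no Cre-only or floxed control, and mark the NF1 library as a repeat. Since each genotype is 1 library, no difference had a replicate check, and the 95% intervals given with ratios between 2 libraries describe counting error alone. In bulk nerve, fewer cells of a type and less RNA per cell cannot be told apart.

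The libraries held between 14111201 and 20362685 counts, and an absent gene could have had up to 3 counts, or 0.152 to 0.183 CPM. P2ry14 was at 10.6 CPM in PKO-NF1 and 10.9 CPM in PKO, against 65.3 CPM in NF1 and 37.6 CPM in WT. Nf1 was at 20.5 in PKO-NF1 against 41.0 CPM in PKO, and at 63.4 in NF1 against 72.8 CPM in WT. The table gives gene totals, which do not show the loss of single exons. NF1 stood apart in other ways: 15 skeletal muscle genes took 5.84% of its counts and at most 0.118% in the other libraries. Xist was at 39699 counts and the Y-linked gene Ddx3y at 0 in NF1, while in PKO-NF1 Xist was at 9 and Ddx3y at 842 counts. PKO and WT held both transcripts, with Xist at 4948 and 10304 counts and Ddx3y at 396 and 813. Sex-linked transcripts thus differed between libraries along with genotype, in PKO-NF1 vs PKO as well as in NF1 vs WT. A repeat library and its genotype cannot be told apart. Results from NF1 vs WT are therefore given beside PKO-NF1 vs PKO, a pair without the NF1 library (skeletal muscle sum 280.4 in PKO-NF1 and 117 CPM in PKO).

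**Figure D1:**
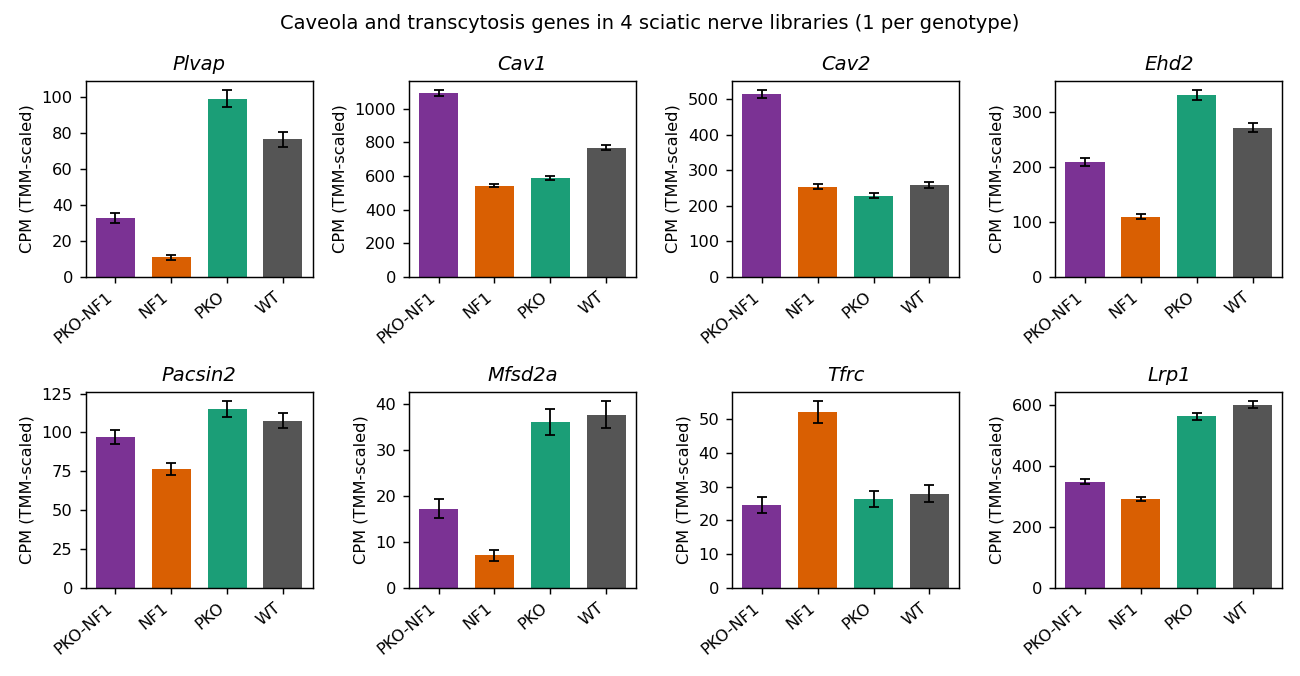
Level of each of the 8 genes (y axis, TMM-scaled CPM, linear from 0) in the PKO-NF1, NF1, PKO and WT libraries (x axis); bars are single libraries and error bars are 95% intervals for counting error. Plvap and Mfsd2a are lowest in NF1, Cav1 and Cav2 are highest in PKO-NF1, and Tfrc is highest in NF1.

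Plvap was the most variable of the 8 genes, with a 9.16-fold span between its highest and lowest library. Its level was 32.8 in PKO-NF1, 10.8 in NF1, 99.0 in PKO and 76.4 CPM in WT, from 538, 213, 1761 and 1295 counts. Both libraries with floxed Nf1 and Dhh Cre were below both libraries without them. Plvap was 3.02-fold below PKO in PKO-NF1 (interval 2.74 to 3.33) and 7.07-fold below WT in NF1 (6.11 to 8.21). A gene is called higher or lower here when it is at least 2-fold apart and its interval excludes 1. By that rule 9.7% of all genes were lower in PKO-NF1 vs PKO and 6.31% were lower in NF1 vs WT. Ratios also moved with transcript length and GC content, and values after that trend is subtracted are given as values with the trend removed. Ranked from the lowest ratio, Plvap stood at 391 of 14700 genes in PKO-NF1 vs PKO and at 32 in NF1 vs WT, and 7 genes including Plvap were at least as low in both pairs. In PKO against WT it was 1.30-fold higher (1.20 to 1.39), which is not called and turned to a log2 ratio of -0.09 when libraries were scaled by total counts. The gene (ENSMUSG00000034845) lies on chromosome 8 of GRCm38, from 71497765 to 71511752 on the minus strand, and overlaps Gtpbp3 on the opposite strand without sharing exon bases.

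Mfsd2a was at 17.2 in PKO-NF1, 7.003 in NF1, 36.0 in PKO and 37.6 CPM in WT, the least abundant member per kilobase of exon in NF1. Again both libraries with floxed Nf1 and Dhh Cre were below both others, and PKO and WT lay close together. Mfsd2a was 2.09-fold below PKO in PKO-NF1 (1.82 to 2.41; not called under total-count scaling) and 5.37-fold below WT in NF1 (4.46 to 6.50), and 19 genes including Mfsd2a were at least as low in both pairs. Across all genes 382 of 14700, or 2.6%, were called lower in both pairs, which share no library; Plvap and Mfsd2a were the 2 of 8 members among them. No member was among the 1.29% of genes called higher in both. The ratio of Mfsd2a in PKO to WT was 0.957 (0.857 to 1.07). In PKO-NF1 Mfsd2a was 2.46-fold higher than in NF1 (1.997 to 3.03) and Plvap 3.04-fold higher (2.59 to 3.58). Both were still lower in PKO-NF1 than in WT, by 2.18-fold (1.90 to 2.52) for Mfsd2a and 2.33-fold (2.10 to 2.58) for Plvap, where 17.5% of genes were called lower; the call of Plvap in that pair ends with the trend removed. The count ratio of Plvap to Mfsd2a within a library, which library scaling does not move, was 1.91 in PKO-NF1, 1.54 in NF1, 2.75 in PKO and 2.03 in WT.

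Mfsd2a (ENSMUSG00000028655) lies on chromosome 4 of GRCm38, from 122946850 to 122961188 on the minus strand. Its start is shown because Mfsd2a was one of the 2 members lower in both pairs; its window of 250 bases before to 50 after the RefSeq start is chr4:122961139-122961438 on the minus strand of GRCm38.p6. Windows were matched for 7 of the 8 members. Capitals mark matches, on either strand, of CTTTGA (the TCF/LEF motif of the Wnt pathway) and ACGTG (the core of the hypoxia element). The TATA box TATAAA and the ETS motif AGGAAG were also searched and had no match in it, and no matches overlap.
Mfsd2a: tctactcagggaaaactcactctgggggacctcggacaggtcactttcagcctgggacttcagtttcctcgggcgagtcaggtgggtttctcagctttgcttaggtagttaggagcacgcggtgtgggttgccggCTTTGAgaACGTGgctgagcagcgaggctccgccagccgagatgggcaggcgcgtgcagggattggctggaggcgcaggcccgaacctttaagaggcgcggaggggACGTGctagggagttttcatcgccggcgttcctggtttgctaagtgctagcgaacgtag
The window holds 1 CTTTGA and 2 ACGTG matches, and 1 match of the E-box CANNTG, which is not in capitals. Of all 32851 windows of this length, 16.0% hold the TCF/LEF motif, 19.6% the hypoxia core, 35.4% the ETS motif, 13.6% the TATA box and 72.3% an E-box. A match describes letters in a window and was not tested as a binding site.

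Many endothelial marker genes were lower in the same pairs, so the members were set against them. Of 22 endothelial markers 10 were called lower and 0 higher in PKO-NF1 vs PKO (median log2 ratio -0.73), and 14 lower and 0 higher in NF1 vs WT (median -1.19). Of all genes 9.7% were called lower in PKO-NF1 vs PKO and 6.31% in NF1 vs WT. With the trend removed 3 of these markers were lower in PKO-NF1 vs PKO (median -0.53) and 12 in NF1 vs WT (median -1.07). Of all 14700 genes, 1153 and 1789 were then called in either direction in these pairs. These totals also apply to the trend-removed counts of the lists below. The summed level of the 22 markers was 1029 in PKO-NF1 against 1595 CPM in PKO, and 568 in NF1 against 1321 CPM in WT. Pecam1, an endothelial adhesion molecule, was 1.38-fold below PKO in PKO-NF1 (1.30 to 1.47) and 3.08-fold below WT in NF1 (2.84 to 3.33). The tight junction claudin Cldn5 stood 1.57-fold below PKO in PKO-NF1 (1.46 to 1.69) and 2.16-fold below WT in NF1 (1.98 to 2.37). The first value of each gene is short of a call and the second is called.

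Plvap lay further below than most of these markers in both pairs. Its log2 ratio was 0.86 below the endothelial median in PKO-NF1 vs PKO, with 1 of 22 markers lower still, and 1.63 below it in NF1 vs WT, with 0 of 22 lower. With the trend removed from members and markers it was 0.73 and 1.57 below, with 0 of 22 lower in either pair. Per 1000 counts of the 22 endothelial genes there were 31.9 counts of Plvap in PKO-NF1, 19.0 in NF1, 62.1 in PKO and 57.9 in WT. For Mfsd2a the same quantity was 16.7 in PKO-NF1, 12.3 in NF1, 22.6 in PKO and 28.5 in WT. Mfsd2a lay below all 22 markers in NF1 vs WT, but in PKO-NF1 vs PKO it lay within them, with 9 of 22 lower (2 of 22 with the trend removed). Ehd2 kept 204 counts per 1000 endothelial counts in PKO-NF1, 192 in NF1, 208 in PKO and 206 in WT, a narrow range; with the trend removed its log2 ratio was 0.41 above the endothelial median in PKO-NF1 vs PKO and 0.23 above it in NF1 vs WT.

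**Figure D2:**
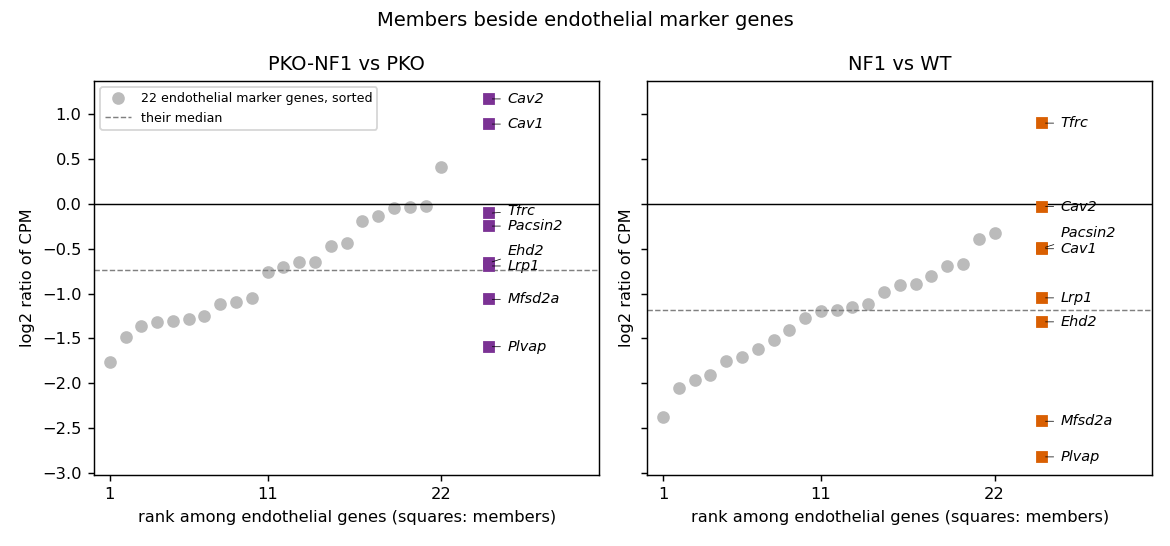
Log2 ratio of CPM (y axis) in PKO-NF1 vs PKO (left) and NF1 vs WT (right) for 22 endothelial marker genes in order of their ratio (grey points; dashed line, their median) and for the 8 members (coloured squares). Plvap lies below all but 1 endothelial gene on the left and below all 22 on the right, and Cav2 lies above all 22 in both.

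The caveolins lay above most endothelial markers in both pairs. With the trend removed, Cav1 lay above 22 of 22 markers in PKO-NF1 vs PKO and above 14 in NF1 vs WT, and Cav2 above 22 and 20. Cav1, the main structural caveolin, was at 1094 in PKO-NF1, 544 in NF1, 590 in PKO and 769 CPM in WT. Cav2, which assembles into the coat with Cav1, was at 514 in PKO-NF1, 254 in NF1, 229 in PKO and 259 CPM in WT. In CPM, PKO-NF1 was the high library for both genes, and the other 3 libraries lay between 229 and 259 CPM for Cav2. With the trend removed the log2 ratio in PKO-NF1 vs WT went from 0.51 to -0.19 for Cav1 and from 0.99 to 0.09 for Cav2. PKO-NF1 was then not the high library for Cav1. In PKO-NF1 vs PKO, Cav2 was 2.25-fold higher (2.17 to 2.34) and is called, though not with the trend removed; 5.2% of all genes were called higher in that pair. Cav1 was 1.85-fold higher there (1.81 to 1.90), short of 2-fold. In NF1 vs WT the 2 genes had ratios of 0.979 (0.940 to 1.02) for Cav2 and 0.707 (0.689 to 0.725) for Cav1, and neither is called.

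The caveolins thus differed between the 2 Nf1 pairs. The log2 ratio of Cav1 in PKO-NF1 vs PKO exceeded that in NF1 vs WT by 1.39 (1.34 to 1.44, counting error only), and that of Cav2 by 1.20 (1.12 to 1.28). Of all genes 10.4% had a larger absolute difference between the pairs than Cav1 and 13.2% a larger one than Cav2; with 1 library per genotype this difference was not tested against animals. PKO-NF1 was also above NF1, by 2.01-fold for Cav1 (1.965 to 2.06; not called with DESeq2 size factors) and 2.03-fold for Cav2 (1.959 to 2.10), where 7.9% of genes were called higher; both calls end with the trend removed.

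Cav1 and Cav2 are neighbours on chromosome 6, both on the plus strand: Cav2 (ENSMUSG00000000058) from 17281185 to 17289115 and Cav1 (ENSMUSG00000007655) from 17306335 to 17341452. Both overlap the antisense gene Gm15581 without sharing exon bases. Their windows, chr6:17280935-17281234 for Cav2 and chr6:17306085-17306384 for the upstream of 2 starts of Cav1, begin 25150 bases apart. They are shown because the pair was higher together in PKO-NF1 in CPM, without trend removal. Capitals mark the TATA box, the ETS motif and the hypoxia core on either strand. Each has 1 match in the Cav1 window, and no matches overlap.
Cav2: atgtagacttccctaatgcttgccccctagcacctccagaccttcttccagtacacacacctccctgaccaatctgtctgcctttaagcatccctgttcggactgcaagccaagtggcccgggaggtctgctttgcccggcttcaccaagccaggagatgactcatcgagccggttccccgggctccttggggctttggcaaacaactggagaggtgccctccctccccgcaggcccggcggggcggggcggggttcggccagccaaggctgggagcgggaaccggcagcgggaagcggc
Cav1: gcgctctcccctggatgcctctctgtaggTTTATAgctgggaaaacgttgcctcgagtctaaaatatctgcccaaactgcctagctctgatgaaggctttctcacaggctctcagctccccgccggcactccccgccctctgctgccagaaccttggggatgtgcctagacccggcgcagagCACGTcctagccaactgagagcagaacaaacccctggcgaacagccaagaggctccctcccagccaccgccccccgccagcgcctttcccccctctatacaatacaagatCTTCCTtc
The Cav2 window holds none of these 4 motifs. It holds 2 E-boxes and 16 CpG dinucleotides, and the Cav1 window 1 E-box and 13 CpG; the median window holds 7 CpG.

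Counts of Cav1 per count of Cav2 were 2.13 in PKO-NF1, 2.15 in NF1, 2.58 in PKO and 2.97 in WT. Both libraries with floxed Nf1 and Dhh Cre had the lower ratio, and their intervals (2.07 to 2.18 and 2.07 to 2.22) did not reach those of PKO (2.49 to 2.68) and WT (2.87 to 3.07). The log2 difference between Cav1 and Cav2 was -0.28 in PKO-NF1 vs PKO and -0.47 in NF1 vs WT, and 0.00 and -0.22 with the trend removed. Counts of Cav1 per count of Ehd2 were 5.22 in PKO-NF1 and 4.97 in NF1, against 1.78 in PKO and 2.83 in WT. Both libraries with floxed Nf1 and Dhh Cre were above both others in these counts. The log2 difference between Cav1 and Ehd2 was 1.55 in PKO-NF1 vs PKO and 0.82 in NF1 vs WT, and 0.40 and -0.05 with the trend removed, so the second did not keep its direction. Counts of Cav1 per count of Cavin1, the main cavin, listed as Ptrf, were 1.77 in PKO-NF1, 1.08 in NF1, 0.565 in PKO and 0.911 in WT. That difference was 1.65 and 0.25 on the log2 scale in the same 2 pairs, and 0.64 and -0.58 with the trend removed. Plvap counts per count of Cav1 were 0.0300 in PKO-NF1 and 0.0199 in NF1, against 0.168 in PKO and 0.0993 in WT, and their log2 differences of -2.48 in PKO-NF1 vs PKO and -2.32 in NF1 vs WT came to -1.55 and -1.76 with the trend removed.

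**Figure D3:**
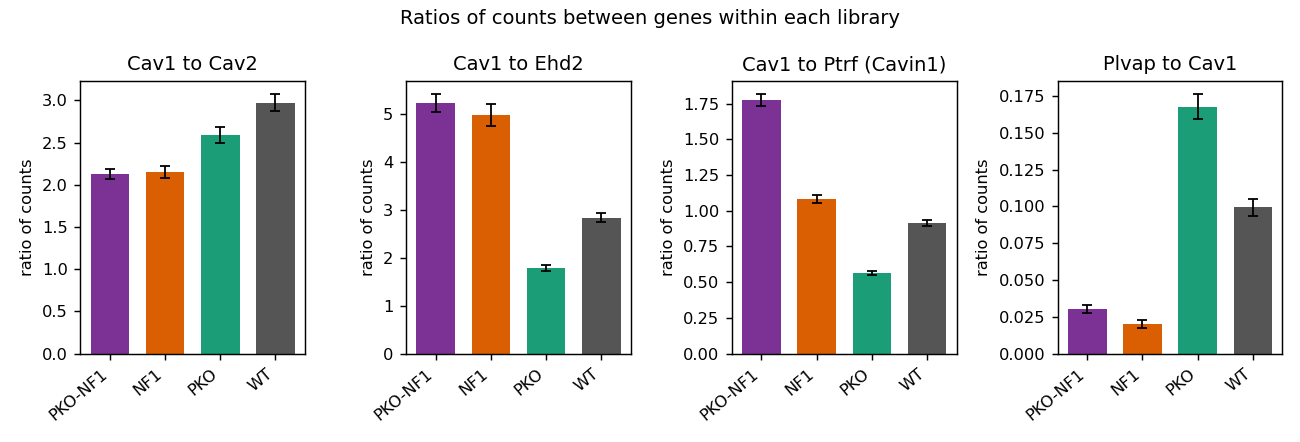
Counts of one gene per count of another (y axes, ratio, linear from 0) within the PKO-NF1, NF1, PKO and WT libraries; error bars are 95% intervals for counting error. Cav1 per Ehd2 is above 4.9 in PKO-NF1 and NF1 and below 2.9 in PKO and WT, and Plvap per Cav1 is lower in PKO-NF1 and NF1 than in PKO and WT.

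Ehd2, the ATPase of the caveola neck, was at 210 in PKO-NF1, 109 in NF1, 331 in PKO and 272 CPM in WT. Its order of libraries matched that of Plvap with a narrower span of 3.03-fold. It was 2.49-fold below WT in NF1 (2.36 to 2.62), which is called but not with the trend removed, and 1.58-fold below PKO in PKO-NF1 (1.51 to 1.65), which is not. Pacsin2, a membrane-bending F-BAR protein, varied least of the 8, by 1.51-fold between 115 CPM in PKO and 76.3 CPM in NF1. It stood at 97.0 CPM in PKO-NF1 and 108 CPM in WT and was called in none of the 5 pairs compared. On GRCm38, Ehd2 (ENSMUSG00000074364) spans 15946958 to 15967567 of chromosome 7 and Pacsin2 (ENSMUSG00000016664) spans 83375607 to 83464606 of chromosome 15, both on the minus strand.

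Of 15 coat and neck genes outside the 8, 0 were higher and 3 lower in PKO-NF1 vs PKO (median log2 ratio -0.50), and 2 were higher and 1 lower in NF1 vs WT (median -0.46), against 14.9% and 16.7% of all genes called in either direction. With the trend removed 0 were called in PKO-NF1 vs PKO and the counts of NF1 vs WT stayed at 2 and 1. The median over all genes was -0.01 and 0.00 in these pairs. Cavin1 was at 617 in PKO-NF1 against 1046 CPM in PKO, and at 503 in NF1 against 845 CPM in WT, 1.69-fold and 1.68-fold apart and short of a call. Cavin2 (listed as Sdpr) was at 256 CPM in PKO-NF1 and 259 CPM in PKO, and Cavin3 (listed as Prkcdbp) at 243 and 213 CPM in the same 2 libraries, so the Cav2 call in that pair had no matching call among the 3 widely expressed cavins. Dynamin 2, Dnm2, which cuts vesicles from the membrane, was 2.08-fold below PKO in PKO-NF1 (1.90 to 2.27; log2 ratio -1.05, and -0.66 with the trend removed). The 2 genes higher in NF1 are the caveola genes of striated muscle: Cav3 at 15.3 in NF1 against 0.531 CPM in WT (28.8-fold, 15.0 to 63.5), and Cavin4 (listed as Murc) at 32.7 in NF1 against 0.649 CPM in WT (50.4-fold, 28.0 to 102). Skeletal muscle markers moved with them, 15 of 15 higher in NF1 vs WT with a summed 56505 in NF1 against 982 CPM in WT, and in PKO-NF1 Cav3 was at 0.244 CPM and Cavin4 at 0.122 CPM. The part of muscle tissue in these 2 genes was not tested.

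Adipocytes and fibroblasts also hold many caveolae. Of 12 adipocyte markers 3 were lower and 0 higher in PKO-NF1 vs PKO, with a summed 17926 CPM in PKO-NF1 and 22948 CPM in PKO. In NF1 vs WT 8 were lower and 0 higher, with 6010 CPM in NF1 and 9537 CPM in WT. Cav1 was 1.30-fold below WT in PKO (1.27 to 1.34), short of a call. Of 9 fibroblast markers 0 were called in either Nf1 pair, and their sum was 17335 in PKO-NF1, 9750 in NF1, 15742 in PKO and 10635 CPM in WT. Of 11 myelinating Schwann cell markers 4 were lower and 0 higher in PKO-NF1 vs PKO, and 9 lower and 0 higher in NF1 vs WT. Schwann cell lineage markers, 8 in number, had 1 lower in PKO-NF1 vs PKO (median log2 ratio -0.15) and 0 called in NF1 vs WT (median -0.71), and summed to 2219 in PKO-NF1, 1453 in NF1, 1462 in PKO and 1725 CPM in WT, a sum that is mostly S100b. The part of these cell types in the levels of the 8 genes was not tested. For comparison, 9.7% of all genes were called lower in PKO-NF1 vs PKO and 6.31% in NF1 vs WT.

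Lrp1 was at 349 in PKO-NF1, 291 in NF1, 564 in PKO and 602 CPM in WT. Both libraries with floxed Nf1 and Dhh Cre were below both others. It was 2.07-fold below WT in NF1 (2.002 to 2.14), just past the 2-fold line and not called with the trend removed, and 1.62-fold below PKO in PKO-NF1 (1.56 to 1.67), short of it. Against the endothelial median Lrp1 was not low: its log2 ratio was 0.14 above it in NF1 vs WT and 0.04 above it in PKO-NF1 vs PKO. Among 8 other measured receptors of the LDL receptor family, 2 were lower in PKO-NF1 vs PKO, among them the Wnt co-receptor Lrp5 (2.94-fold, 2.54 to 3.43), and 0 were higher; 0 were called in that pair with the trend removed. In NF1 vs WT 0 were lower and 1 was higher, the sorting receptor Sorl1 (2.22-fold, 1.82 to 2.72). Calls in either direction covered 14.9% of all genes in PKO-NF1 vs PKO and 16.7% in NF1 vs WT.

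Tfrc was the one member of the 8 with a higher level in NF1 than in WT, by an amount short of a call. Its level was at 24.5 in PKO-NF1, 52.1 in NF1, 26.3 in PKO and 27.9 CPM in WT. NF1 alone was high, and the other 3 libraries lay between 24.5 and 27.9 CPM. Tfrc was 1.87-fold above WT in NF1 (1.67 to 2.09), and in PKO-NF1 it was 2.13-fold below NF1 (1.90 to 2.40), which is called but not with the trend removed; 13.8% of genes were lower in that pair. In PKO-NF1 vs PKO its ratio was 0.930 (0.812 to 1.06). The high library is the one in which the 15 skeletal muscle markers took 5.84% of counts; the part of muscle RNA in the Tfrc level was not tested. Markers of proliferating cells, which also use Tfrc, were called in 0 of 10 cases in NF1 vs WT. They were higher in 3 of 10 in PKO-NF1 vs PKO (1 with the trend removed), where 5.2% of all genes were called higher. Erythroid markers other than globins, 3 in number, summed to 131 in PKO-NF1, 4.72 in NF1, 11.6 in PKO and 15.8 CPM in WT, and their part in the Tfrc level was not tested. On GRCm38, Tfrc (ENSMUSG00000022797) spans 32608920 to 32632794 of chromosome 16 on the plus strand and Lrp1 (ENSMUSG00000040249) spans 127538161 to 127621148 of chromosome 10 on the minus strand.

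Other receptors and sorting genes of the route were counted too. Of 10 measured transcytosis receptors on a separate list, 1 was lower in PKO-NF1 vs PKO and 1 in NF1 vs WT, with 0 higher in both. The one lower in NF1 was the ALK1 receptor Acvrl1 (2.24-fold, 2.03 to 2.46), not called with the trend removed (log2 ratio -0.73), where the list still had 1 gene lower in each pair. Of 17 clathrin uptake and sorting genes 1 was higher and 2 lower in PKO-NF1 vs PKO, and 0 were called in NF1 vs WT, against 14.9% and 16.7% of all genes; with the trend removed 0 were called in either pair. Rab5a, the early endosome GTPase, was 2.32-fold higher in PKO-NF1 than in PKO (2.14 to 2.51), while the adaptors Epn1 and Ap2a1 were 2.37-fold (2.23 to 2.52) and 2.23-fold lower (1.98 to 2.52). Wnt signalling is known from mouse brain endothelium to sustain Mfsd2a. Of 11 genes of that signal 3 were lower in PKO-NF1 vs PKO (median -0.76) and 5 in NF1 vs WT (median -0.99), with 0 higher. In these pairs 9.7% and 6.31% of all genes were called lower, and the 22 endothelial markers had medians of -0.73 and -1.19. With the trend removed 1 and 3 of the 11 genes were lower (medians -0.51 and -0.48, against -0.53 and -1.07 for the endothelial markers). The Wnt target Axin2 was 2.13-fold below PKO in PKO-NF1 (1.78 to 2.57) and 2.11-fold below WT in NF1 (1.82 to 2.46). Tcf7l1, a transcription factor of the pathway, was 2.51-fold (2.12 to 2.99) and 2.49-fold lower (2.12 to 2.94) in the same 2 pairs. Neither gene is called with the trend removed, with log2 ratios of -0.69 and -0.66 for Axin2 and -0.92 and -0.90 for Tcf7l1. The part of Wnt signalling in the Mfsd2a level was not tested.

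Over all 8 members, 1 was higher and 2 lower in PKO-NF1 vs PKO, where 14.9% of all genes were called in either direction, and 0 were higher and 4 lower in NF1 vs WT, where 16.7% were called. The median log2 ratio of the 8 was -0.45 and -0.77 in these pairs. In PKO vs WT 0 of 8 were called, against 15.3% of all genes, and the 8 ratios lay between -0.38 and 0.37 on the log2 scale (median -0.07; all genes -0.08). PKO-NF1 vs NF1 had 4 higher (Plvap, Mfsd2a, Cav1 and Cav2) and 1 lower (Tfrc), against 21.7% of all genes, and PKO-NF1 vs WT had 0 higher and 2 lower (Plvap and Mfsd2a), against 32.1%. These comparisons share libraries with each other and are not independent.

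**Figure D4:**
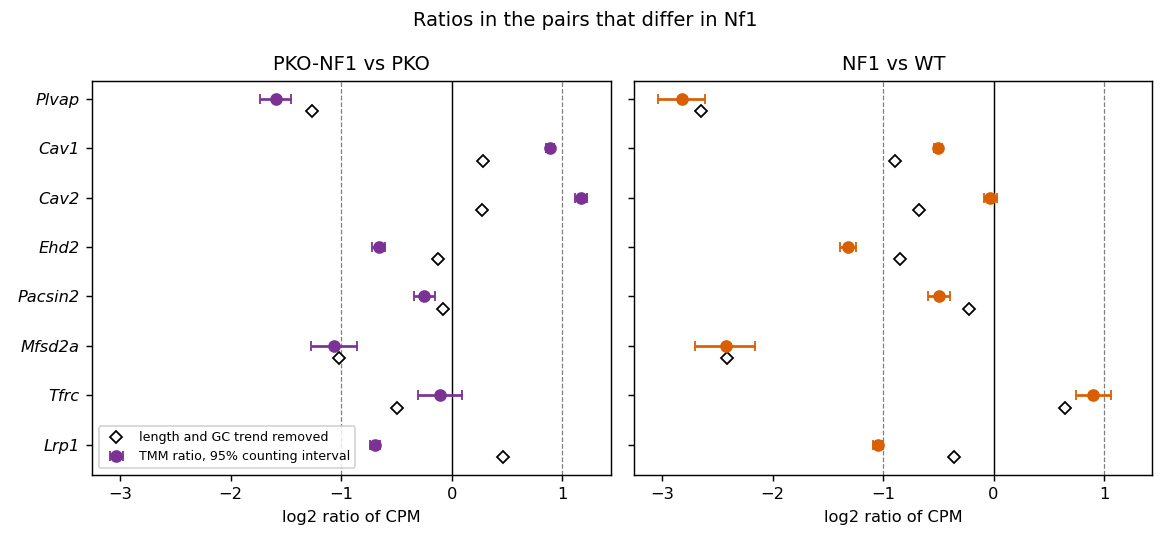
Log2 ratio of CPM (x axis) of the 8 genes (y axis) in PKO-NF1 vs PKO (left) and NF1 vs WT (right); filled points are TMM-scaled ratios with 95% counting intervals, open diamonds the same ratios with the trend over transcript length and GC content removed, and dashed lines mark 2-fold. Plvap and Mfsd2a stay beyond 2-fold on the low side in both panels by either measure.

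Transcript composition moved with the ratios. Among genes in the lowest decile of transcript GC content the median log2 ratio was 0.55 in PKO-NF1 vs PKO and 0.46 in NF1 vs WT, and in the highest decile -0.58 and -0.41. Cav2 (37.5% GC) and Tfrc (39.8%) belong to the lowest decile, and Plvap (60.6%) and Lrp1 (57.9%) to the highest. With trends over GC content and transcript length subtracted, the log2 ratios of Plvap were -1.27 in PKO-NF1 vs PKO and -2.64 in NF1 vs WT, and those of Mfsd2a -1.02 and -2.41, all still called. Cav2 in PKO-NF1 vs PKO came to 0.28 and lost its call, as did Ehd2 (-0.84) and Lrp1 (-0.36) in NF1 vs WT. Lrp1 in PKO-NF1 vs PKO turned to 0.47, and in PKO-NF1 vs WT it turned from -0.79 to 1.26 and became called higher. Lrp1 (1.63) and Ehd2 (1.37) also became called higher in PKO-NF1 vs NF1. In PKO-NF1 vs NF1 the calls of Cav1 (0.72), Cav2 (0.77) and Tfrc (-0.97) were lost. Cav1 came to 0.28 in PKO-NF1 vs PKO and -0.89 in NF1 vs WT, still on opposite sides of 0. Plvap in PKO-NF1 vs WT came to -0.98 and lost its call.

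**Figure D5:**
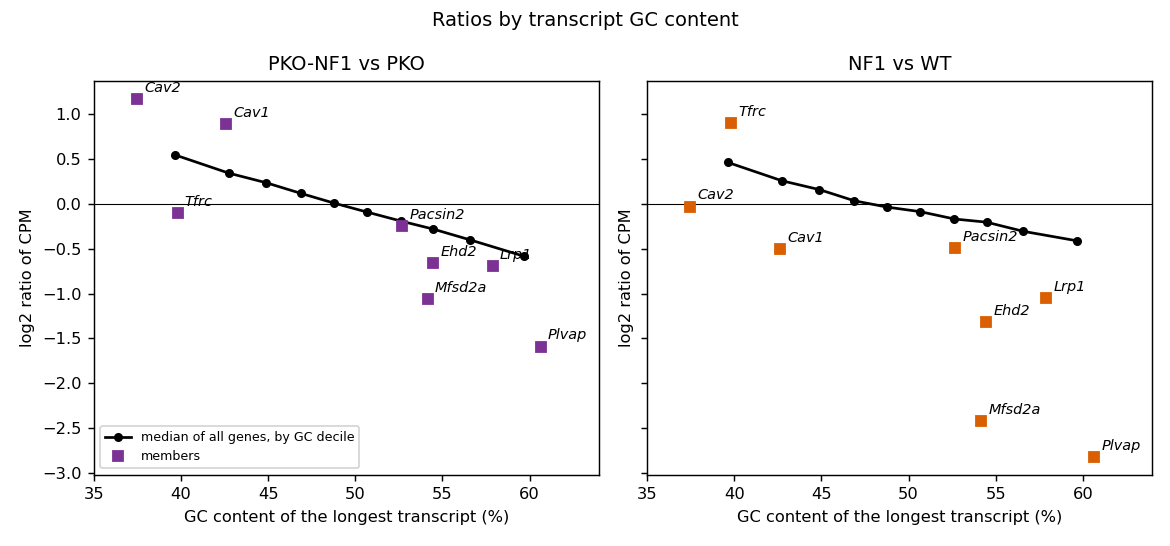
Log2 ratio of CPM (y axis) against GC content of the longest transcript (x axis, %) in PKO-NF1 vs PKO (left) and NF1 vs WT (right); black points join the medians of all genes in deciles of GC content and coloured squares are the 8 members. Plvap and Mfsd2a lie well below the line in both panels, and Cav1 and Cav2 lie above it on the left and below it on the right.

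An additive edgeR quasi-likelihood model over the 4 libraries gave each genotype a term, with 1 residual degree of freedom that is the departure from additivity. For the Nf1 term it called 0 of 14105 genes (0.0%) at a Benjamini-Hochberg adjusted p under 0.05, with 2943 at an unadjusted p under 0.05, and 0 of the 8 members. The fitted log2 change of Plvap was -2.19 (SE 0.35, edgeR adjusted p 0.170) and that of Mfsd2a -1.73 (SE 0.38, adjusted p 0.170). The DESeq2 Wald test of the same model called 284 genes (2.01%), among them Plvap (DESeq2 adjusted p 0.000332) and Mfsd2a (0.0163). Cav1 had 0.20 (SE 0.54, edgeR adjusted p 0.847) and Cav2 0.57 (SE 0.42, adjusted p 0.458), the 2 largest SE of the 8 for this term. For the P2ry14 term edgeR called 7 genes (0.0496%) and DESeq2 720 (5.1%), with 0 members in either; Plvap had the largest fitted change, 0.97 (SE 0.34, edgeR adjusted p 0.178).

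Per kilobase of exon, Cav1 and Cav2 were the most abundant of the 8 in every library. In PKO-NF1 Cav1 was at 318, Cav2 at 154, Ehd2 at 41.0, Pacsin2 at 19.8, Lrp1 at 19.7, Plvap at 16.5, Mfsd2a at 7.65 and Tfrc at 3.96 CPM per kb. In NF1 the order was Cav1 at 158, Cav2 at 76.0, Ehd2 at 21.4, Lrp1 at 16.4, Pacsin2 at 15.6, Tfrc at 8.43, Plvap at 5.44 and Mfsd2a at 3.11 CPM per kb. Plvap was ahead of Lrp1 in PKO (49.8 against 31.8 CPM per kb) and in WT (38.5 against 34.0), and behind Lrp1 and Pacsin2 in PKO-NF1 and NF1.

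Likeness of profile was measured as the root mean square distance between log2 levels centred over the 4 libraries, among 10412 genes at 5 CPM or more in every library outside predicted genes, ribosomal protein genes and the members. Among the genes closest to Plvap were Aoc3 (0.231), a vascular amine oxidase, and Vwf (0.239), the carrier of coagulation factor VIII. Nearest to Mfsd2a were Chdh (0.0709), Slc1a5 (0.0762) and Slc7a10 (0.117), the last 2 being amino acid transporters. Cav1 lay nearest to Cyp7b1 (0.0550), Serpine2 (0.0558) and Laptm4b (0.0577), and Cav2 to Odc1 (0.0418), Swsap1 (0.0493) and F3 (0.0616). For Ehd2 they were Clu (0.0162), Comp (0.0428) and Aqp1 (0.0584), and for Pacsin2 Tmem115 (0.0148), Rangap1 (0.0195) and C1qtnf6 (0.0202). Tfrc had Rabl6 (0.0289), Camk2b (0.0495) and Zc3h6 (0.0562), and Lrp1 had Ywhag (0.0326), Npr3 (0.0358) and Rin3 (0.0366). Among the members themselves Cav1 and Cav2 were the nearest pair (0.20) and Plvap and Mfsd2a were 0.31 apart. With 4 points per gene these are descriptions of 4 libraries.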

How the data were processed

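Whole sciatic nerve RNA (frozen tissue, Trizol extraction, TruSeq RNA kit, per the labels' protocols) was sequenced. The submitters' processing notes list featureCounts 1.5.2, HISAT2 2.0.5, FastQC 0.11.7 and the build mm10, without their settings. No annotation or strand setting is given in the sources used here. The file as deposited by the authors holds whole-number counts for each gene symbol, without normalization; 0 of its columns were left out.

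CPM were computed with TMM factors from edgeR 4.0.16 (R 4.3.3). Ratios carry exact conditional (Clopper-Pearson) 95% intervals; no molecular identifiers are recorded, so the intervals cover counting error only. Genes at 1 CPM in at least 1 library were compared, and at 1 CPM in at least 2 libraries in the additive model. Its p-values set a term against departure from additivity, not against animals, and its SE is the fitted change over the root of F. DESeq2 1.42.0 was an alternative, as were total counts, other filters, a 1.5-fold threshold and removal of a trend over transcript length and GC content.

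The 8 members and the 19 gene lists (228 entries, 216 measured, 6 found under another symbol) were chosen with earlier results of these data known. Of each list, up to 2 called genes per direction with the interval bound farthest from 1 and the most abundant gene could be named, with 4 endothelial genes and the 3 most alike genes of each member; Cavin2, Cavin3 and Trf, and values of named genes in pairs that did not select them, were added after their values were seen. Some genes that this rule names are not reported here. Exon length, GC content and coordinates are from GENCODE M21 (GRCm38), to which 23671 symbols matched, and promoter windows from RefSeq GRCm38.p6. Ratio and model steps were tested on simulated data. The counts simulated for the model varied less than was fitted here and had no departure from additivity. That test is therefore no check of the model's p-values in these libraries.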

Additional observations from a re-analysis of the deposited data

Results flagged for a closer look

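Cav1 lay on opposite sides of 1 in the 2 pairs that differ in Nf1, with both counting intervals excluding 1: its log2 ratio was 0.89 in PKO-NF1 vs PKO and -0.50 in NF1 vs WT, a difference of 1.39. The same difference arises in the 2 pairs that differ in P2ry14, with 1.01 in PKO-NF1 vs NF1 and -0.38 in PKO vs WT. Cav2 and Lrp1 also lay on opposite sides of 1 in those P2ry14 pairs, by a difference of 1.20 for Cav2 (1.02 in PKO-NF1 vs NF1 and -0.18 in PKO vs WT) and of 0.36 for Lrp1 (0.26 and -0.09 in the same order). With the trend over transcript length and GC content removed, Lrp1 lay on the same side in both, at 1.63 and 0.67. The trend subtracted from Lrp1 was -1.37 and -0.76 there, and its fit at the length of Lrp1 was not tested. With 1 library per genotype the difference was not tested against animals, and every pair holding NF1 includes the library that stands apart.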

How the results depend on the processing

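All 14 called ratios of members kept their direction in 56 of 56 values under DESeq2 size factors, total counts, TMM without other-tissue and ribosomal genes, and removal of the length and GC trend. Direction was not always enough for a call: DESeq2 size factors ended that of Cav1 in PKO-NF1 vs NF1, and total counts ended those of Cav1 and Cav2 there and of Mfsd2a in PKO-NF1 vs PKO. Total counts moved the median log2 ratio of all genes to -0.22 in NF1 vs WT, -0.54 in PKO vs WT, -0.17 in PKO-NF1 vs NF1 and -0.37 in PKO-NF1 vs WT. The share of all called genes that were higher went with it, at 41.2% in NF1 vs WT (TMM 62.3%), 21.9% in PKO vs WT (65.7%, and 49.8% with the trend removed), 22.6% in PKO-NF1 vs NF1 (36.4%) and 19.8% in PKO-NF1 vs WT (45.6%). Of all genes, 1153 were called in PKO-NF1 vs PKO (TMM 2190) and 1889 in PKO-NF1 vs WT (4726) with the trend removed, and 3475 in PKO vs WT (2242) under total counts. At 1.5-fold 5266 were called in NF1 vs WT (2458), 5250 in PKO-NF1 vs PKO, 4630 in PKO vs WT, 6475 in PKO-NF1 vs NF1 (3193) and 8006 in PKO-NF1 vs WT. The additive model called 1102 genes for the Nf1 term (TMM 0) and 2690 for the P2ry14 term (TMM 7) under total counts, and 46 and 108 without a filter. The count of called members became 2 in NF1 vs WT with the trend removed, 6 in PKO-NF1 vs PKO and 4 in PKO-NF1 vs WT at a 1.5-fold threshold, and 3 in PKO-NF1 vs NF1 under total counts. In the additive model the Nf1 term called 2 members under total counts and 2 with DESeq2 (Plvap and Mfsd2a both times), and the P2ry14 term called 1 (Tfrc) under total counts. With 1 genotype term and each library left out in turn, the Nf1 term called 0 members and the P2ry14 term 0 to 1; the 1 was Plvap, higher, without WT. Lrp1 in NF1 vs WT reversed to 0.14 when set against the endothelial median. The causes were not tested. Trend removal of the within-library ratios and the endothelial comparison was chosen after seeing the data. Filters at no minimum and at 5 CPM changed no count of members. No paired analysis was possible because each genotype has 1 library and the labels number no replicates. Leaving out a library ends any pair that contains it. The lowest count of a member was 138 (Mfsd2a in NF1).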

Other observations

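Genes around the 2 receptors moved in other comparisons. In PKO-NF1 vs PKO 14.9% of all genes were called in either direction, and in NF1 vs WT 16.7%. Of 12 measured iron handling genes 0 were called in PKO-NF1 vs PKO, and 1 was higher in NF1 vs WT, the iron exporter Slc40a1 (24.4 CPM in NF1 and 4.01 CPM in WT; 6.08-fold, 4.71 to 7.96), in the library where Tfrc was high. The ferritin heavy chain Fth1 was at 23605 in PKO-NF1, 10082 in NF1, 24632 in PKO and 7356 CPM in WT, so both P2RY14-/- libraries were above both others, and transferrin, Trf, was at 1113, 670, 1277 and 907 CPM in the same 4 libraries.

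Among 14 genes for the LRP1 chaperone and LRP1 ligands, 1 was higher and 1 lower in PKO-NF1 vs PKO, and 0 were higher and 3 lower in NF1 vs WT. With the trend over transcript length and GC content removed these became 0 higher and 1 lower in each pair. The protease Mmp9 was 2.18-fold (1.97 to 2.42) and 2.19-fold lower (1.85 to 2.60), and is called in neither pair with the trend removed (log2 ratios -0.89 and -0.82). Of 12 sterol-regulated lipid genes 5 were lower and 0 higher in PKO-NF1 vs PKO (median log2 ratio -0.80), and 3 lower and 0 higher in NF1 vs WT (median -0.83); the lipogenic transcription factor Srebf1 was 2.41-fold (2.27 to 2.56) and 2.45-fold lower (2.31 to 2.61). With the trend removed 0 were higher and 1 lower in PKO-NF1 vs PKO, 1 was higher and 2 lower in NF1 vs WT, and Srebf1 was not called (-0.66 and -0.74). Without trend removal 9.7% of all genes were called lower and 5.2% higher in PKO-NF1 vs PKO. The shares in NF1 vs WT were 6.31% lower and 10.4% higher.

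Of 10 pericyte and smooth muscle markers 2 were lower in PKO-NF1 vs PKO, and 3 lower and 1 higher in NF1 vs WT. Of 7 perineurial markers 1 was lower in the first pair and 2 in the second (0 in both with the trend removed). Among 10 macrophage markers 1 was higher in the first pair and 1 higher and 1 lower in the second. The shares of all genes called in either direction were 14.9% in the first pair and 16.7% in the second.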
